A study of Drosophila melanogaster with 4 samples.

Results

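The genes described here are 6 regulators of wing development on the left arm of the second chromosome (2L) of Drosophila melanogaster: ds, dpp, wg, Wnt6, nub and pdm2. They were chosen by position, as 5 intervals on FlyBase release 5 that together span 257 kb, with nub and pdm2 sharing one interval. The study mapped, by ChIP-seq, where the polymerase that transcribes genes (RNA polymerase II) carried a phosphate on serine 5 of its C-terminal repeat in CME-W1-Cl.8+ (Clone 8) cells, derived per the labels from the dorsal mesothoracic disc, the larval wing primordium, of male animals in the third instar. All samples came from this 1 line, with no other genotype or time and no treatment named in the labels, and cells in culture need not keep the fates of the disc. There were 2 ChIP libraries, precipitated with a rabbit polyclonal antibody (ab5131), and 2 input libraries. The results rest on the enriched regions, or clusters, that the authors listed for ChIP replicate 1, for ChIP replicate 2 and, as a combined list, for the series. Every cluster that overlapped an interval by at least 1 bp was taken, which gave 3 of 5091 clusters in ChIP replicate 1, 2 of 4876 in ChIP replicate 2 and 2 of 5309 in the combined list.

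The wing disc is a sheet of cells patterned by secreted signals. Dpp, a ligand of the bone morphogenetic protein family, spreads from a stripe along the boundary between anterior and posterior cells, and Wg, a Wnt ligand, spreads from the future wing margin. Wnt6 encodes a further Wnt ligand and is the neighbour of wg. Ds is a large cadherin that binds the cadherin Fat on adjacent cells and takes part in tissue polarity and growth control. Nub and Pdm2 are related transcription factors with a POU domain that are known from the wing primordium. Serine 5 of the polymerase is phosphorylated around the start of transcription, so a cluster of this mark is usually found at the start of a gene that polymerase has entered, whether it goes on to full transcription or pauses.

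Over most of these loci no cluster was listed. The intervals of ds, dpp and wg were free of clusters in all 3 lists. Tiles of 2L as wide as these held a cluster in 78.4%, 61.5% and 39.6% of cases in ChIP replicate 1. The Wnt6 interval held 1 narrow, low-scoring cluster in ChIP replicate 1 and none in ChIP replicate 2 or the combined list. The nub and pdm2 interval was the only one of the 5 with clusters in both replicates. It was also the widest, and 85.4% of tiles of its width held a cluster in ChIP replicate 1 and 86.3% in ChIP replicate 2. All 5 intervals together were covered over 4.05 kb, or 1.58% of their length, in ChIP replicate 1, against 13.6% for the whole of 2L. In ChIP replicate 2 the covered length was 2.41 kb, or 0.939%, against 13.3% for 2L, and in the combined list it was 2.78 kb, or 1.08%, against 15.3%. At the mean density of 2L, a length of 257 kb would hold 9.56 clusters in ChIP replicate 1 and 9.11 in ChIP replicate 2, where 3 and 2 were listed. Clusters were unevenly spread, however, so this mean need not be the usual count. Stretches of at least 50 kb without a cluster held 54.6% of 2L in ChIP replicate 1 and 55.2% in ChIP replicate 2. The counts also include a cluster across the right edge of the nub and pdm2 interval that lay mostly outside it. No interval was covered to a larger share than 2L in either replicate. A share below that of 2L was also common among tiles of 2L as wide as the intervals. Their median coverage ran from 0% at the width of wg to 10.8% at that of nub and pdm2 in each replicate.

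**Figure D1:**
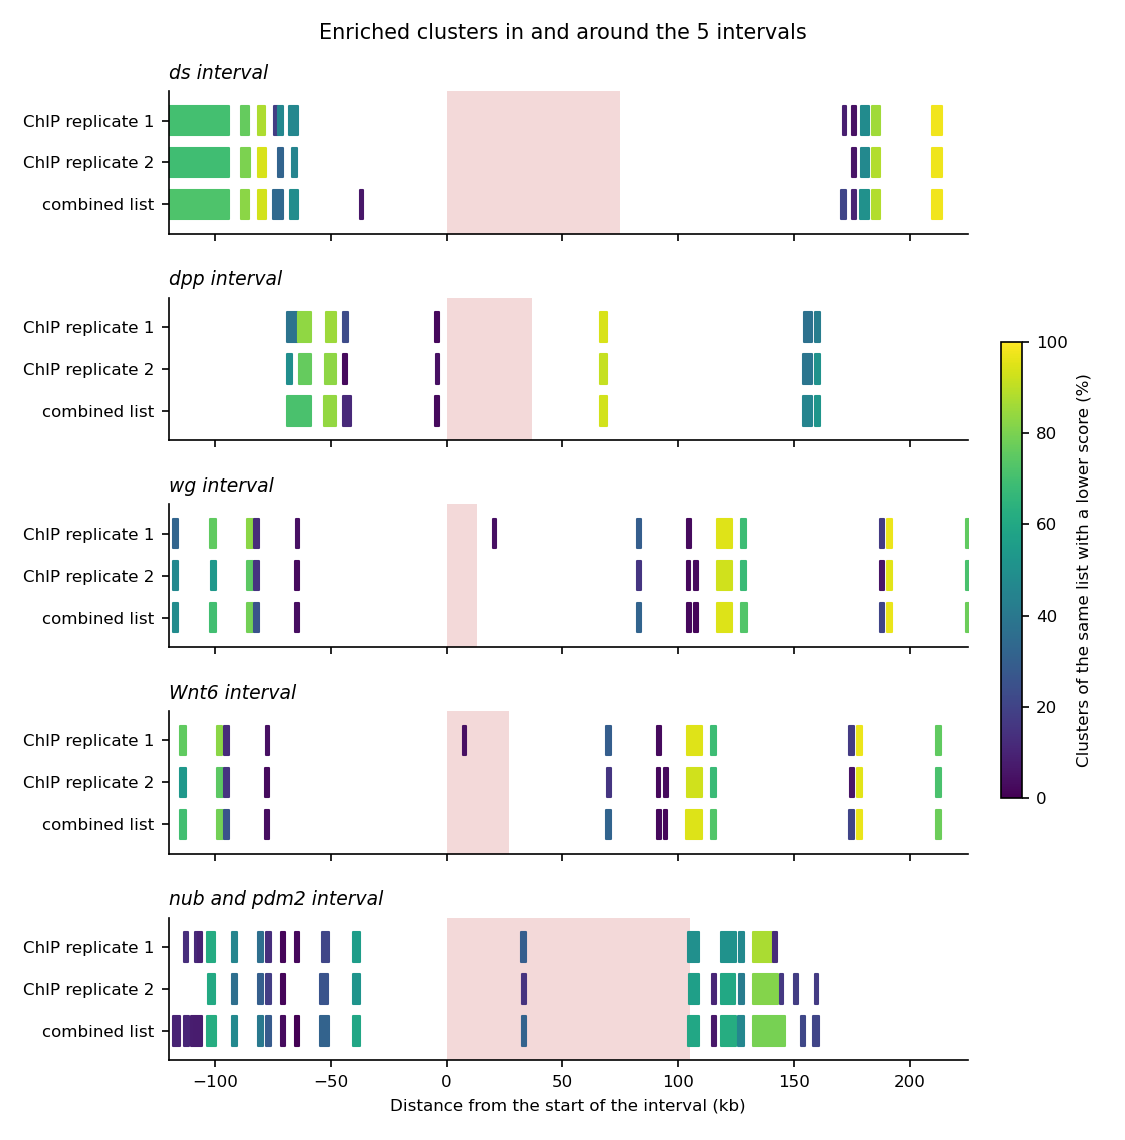
Enriched clusters in and around each interval, by distance from the start of the interval in kb; shading marks the interval, each list has its own row, and colour gives the percent of clusters of the same list with a lower score. The ds, dpp and wg intervals are empty in all 3 rows, the Wnt6 interval holds a single bar in the row of ChIP replicate 1, and the nub and pdm2 interval holds 1 bar inside and 1 across its right edge in every row.

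These values have shared limits. Scores are the authors' values on an unstated scale, and each was ranked among the scores of its own list alone. No read counts were used here, so sequencing depth is unknown, and an interval without a cluster is one where nothing passed the authors' threshold, not one shown to lack polymerase. The lists themselves reached down to clusters 1301 bp wide in ChIP replicate 1, 1302 bp in ChIP replicate 2 and 1001 bp in the combined list. The labels do not say that the replicates came from separate cultures, and their spread may be technical. With 1 kind of cell and no list for the input libraries used here, no test between groups was possible, and the intervals were set beside all tiles of 2L of the same width as a description. Gene models on release 5 were not used here. A cluster could therefore be placed in an interval but not on a promoter, an exon or an intron, whether an interval holds the whole of its gene was not checked, and genes of the Wg, Dpp and Fat pathways elsewhere in the genome were not placed. Neighbouring genes are named by their order in the RefSeq table of release 6, without positions.

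The ds interval, from 640000 to 715000 on 2L (75.0 kb), lay far from any site that both replicates marked. The gene (Dmel_CG17941) encodes the cadherin Dachsous, a ligand for Fat. No cluster overlapped the interval in any of the 3 lists, whereas 78.4%, 79.4% and 80.7% of tiles of 2L as wide as this interval held at least 1 cluster in ChIP replicate 1, in ChIP replicate 2 and in the combined list. The nearest cluster on the left ended 64.1 kb before the interval in ChIP replicate 1 and 64.4 kb before it in ChIP replicate 2. The combined list alone placed a cluster nearer, from 602546 to 603724, which ended 36.3 kb before the interval. That cluster was 1.18 kb wide, narrower than any cluster in a replicate list, and its score of 0.25 was above only 6.16% of the scores in its list. On the right, the nearest cluster began 96.1 kb beyond the interval in ChIP replicate 1, 100.0 kb beyond it in ChIP replicate 2 and 95.4 kb beyond it in the combined list.

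The interval thus lay inside one unbroken stretch without clusters that was much longer than itself. This stretch measured 235 kb in ChIP replicate 1, from 575914 to 811076, and 239 kb in ChIP replicate 2, from 575599 to 814999. By length it ranked eighth of 856 such stretches on 2L in ChIP replicate 1 and seventh of 817 in ChIP replicate 2. Stretches at least as long held 10.9% of the bases of 2L in ChIP replicate 1 and 9.88% in ChIP replicate 2. In the combined list the stretch was 207 kb, ranked ninth of 895. The left and right flanks of the interval, each of its own length, differed from each other. On the left, 3 clusters in ChIP replicate 1 and 2 in ChIP replicate 2 covered 10.1% and 6.31% of the flank. On the right, the flank was empty in both replicates. Hsp60B, which encodes a chaperonin of the Hsp60 family, and Eaat2, which encodes an amino acid transporter, are the next protein-coding genes after ds in the RefSeq order.

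The dpp interval, from 2425000 to 2462000 (37.0 kb), was also empty, but weak and strong sites stood on either side of it. The gene (Dmel_CG9885) encodes the Decapentaplegic ligand. No list placed a cluster in the interval, whereas 61.5% of tiles of its width held a cluster in ChIP replicate 1, 61.4% in ChIP replicate 2 and 63.9% in the combined list. The nearest cluster lay on the left and ended only 3.22 kb before the interval in ChIP replicate 1, 3.17 kb in ChIP replicate 2 and 3.15 kb in the combined list. It ran from 2419975 to 2421780 in ChIP replicate 1 and from 2420380 to 2421825 in ChIP replicate 2. With scores of 0.30 and 0.31 it was among the weakest clusters listed, above 2.26% of the scores in ChIP replicate 1 and 4.16% in ChIP replicate 2. Both replicates and the combined list held it all the same.

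The site to the right of dpp was of the opposite kind. It ran from 2491466 to 2494091 in ChIP replicate 1 and from 2491426 to 2494108 in ChIP replicate 2, beginning 29.5 kb and 29.4 kb beyond the interval. Its score of 2.48 was above 94.0% of the scores in ChIP replicate 1, and its score of 2.35 was above 91.4% of those in ChIP replicate 2. Its start differed by 40 bp between the replicates and its end by 17 bp. Slh, which encodes a protein of the Sec1 family that acts in vesicle transport, is the next protein-coding gene after dpp in the RefSeq order, but the cluster was not assigned to a gene. Between these 2 sites the stretch without clusters measured 69.7 kb in ChIP replicate 1, 69.6 kb in ChIP replicate 2 and 69.6 kb in the combined list, and the dpp interval filled 37.0 kb of it. By length this stretch ranked 73rd of 856 on 2L in ChIP replicate 1 and 75th of 817 in ChIP replicate 2. Few stretches were as long by number, but those at least as long held 45.5% of the bases of 2L in ChIP replicate 1 and 45.9% in ChIP replicate 2.

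The wg interval, from 7305000 to 7318000 (13.0 kb), was empty in all 3 lists as well. The gene (Dmel_CG4889) encodes the Wingless ligand. This interval was the narrowest of the 5, and most tiles of 2L of its width were empty too. Such tiles held a cluster in 39.6% of cases in ChIP replicate 1, in 39.3% in ChIP replicate 2 and in 41.8% in the combined list, so an empty interval of this width was the more common state on 2L. On the left the nearest cluster ended 63.6 kb before the interval in each list, and it was weak, with scores of 0.36 in ChIP replicate 1 and 0.26 in ChIP replicate 2 that were above 4.20% and 2.79% of the scores in their lists.

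The Wnt6 interval, from 7318000 to 7345000 (27.0 kb), was where the replicates differed. The gene (Dmel_CG4969) follows wg in the RefSeq order and is itself followed by another Wnt gene, Wnt10. In ChIP replicate 1 a cluster of 1307 bp ran from 7324972 to 7326278 and covered 4.84% of the interval. In ChIP replicate 2 and in the combined list the interval was empty. Tiles of this width held a cluster in 53.9% of cases in ChIP replicate 1, in 54.2% in ChIP replicate 2 and in 56.3% in the combined list. The median tile was covered to 5.35% in ChIP replicate 1, where 49.3% of tiles were covered less than the interval and 50.6% more. In ChIP replicate 2 the median tile was covered to 5.73%. Over both replicates the covered share was 2.42 ± 3.42% (SD, n = 2), a mean smaller than its spread.

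The single Wnt6 cluster was at the lower limit of its list. It was 1307 bp wide, against 1301 bp for the narrowest cluster in ChIP replicate 1, and 0.196% of the clusters there were narrower. Its score of 0.35 was above 3.91% of the scores. Many clusters of ChIP replicate 1 as weak as this one overlapped a cluster of ChIP replicate 2, whatever the score or width of the latter. Of the 202 clusters in ChIP replicate 1 with a score no higher, 158 (78.2%) overlapped a cluster of ChIP replicate 2, against 4665 (91.6%) of all 5091. Of the 11 clusters that were no wider, 6 did so. Clusters of the combined list, again of any score or width, overlapped 191 of the 202 and 10 of the 11. The Wnt6 cluster was among the few that they did not overlap. These counts do not say how often an equally weak cluster stood in the other list. The weak cluster left of dpp had a lower score in ChIP replicate 1 than the Wnt6 cluster, 0.30 against 0.35, and was listed in both replicates and in the combined list.

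Without that cluster, wg and Wnt6 lay in the same stretch without clusters. In ChIP replicate 2 this stretch ran from 7241358 to 7387084 and measured 146 kb, which ranked 26th of 817 on 2L. The combined list gave 146 kb as well, ranked 25th of 895. Stretches at least as long held 24.7% of the bases of 2L in ChIP replicate 2 and 23.6% in the combined list. In ChIP replicate 1 the Wnt6 cluster divided it into a part of 83.6 kb that held wg and a part of 60.8 kb to the right. These ranked 61st and 89th of 856, and stretches at least as long held 41.5% and 50.0% of the bases of 2L in that replicate. The first site beyond, from 7387068 to 7389146 in ChIP replicate 1 and from 7387085 to 7389113 in ChIP replicate 2, began 42.1 kb to the right of the Wnt6 interval in both. Its scores of 0.76 and 0.52 were above 29.4% and 15.6% of the scores in their lists.

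**Figure D2:**
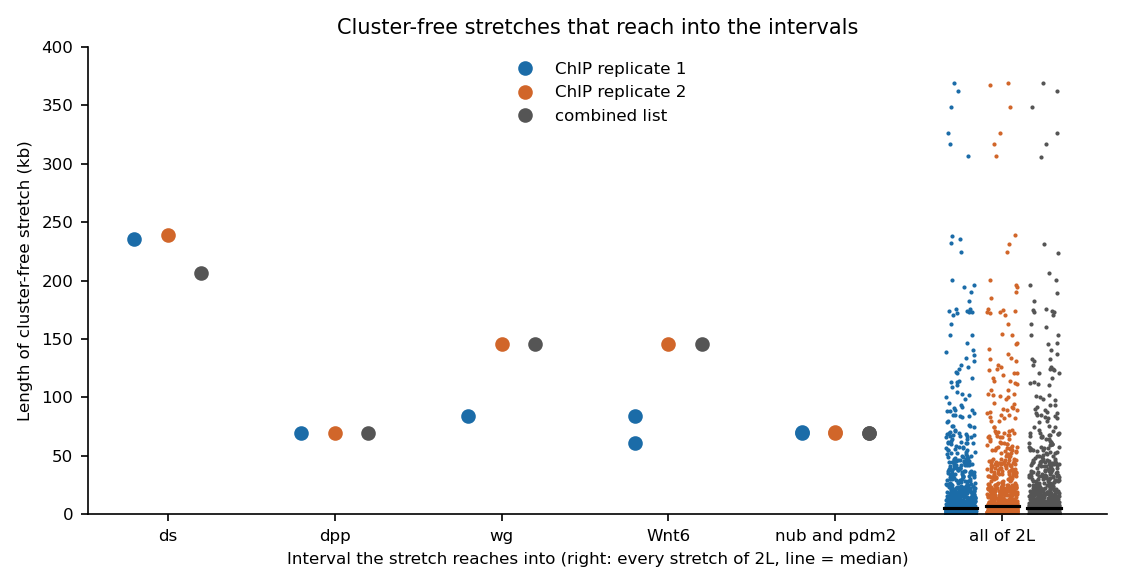
Length in kb of every stretch without clusters that reached into each interval, by list, beside every such stretch of 2L with the median of each list as a line. The ds stretch measures 235 kb in ChIP replicate 1 and 239 kb in ChIP replicate 2, the wg stretch 83.6 and 146 kb, and those of dpp, nub and pdm2 lie near 70 kb in all lists. That length is far above the medians, which count stretches. By bases it is less unusual, since stretches at least as long as that of dpp held 45.5% of 2L in ChIP replicate 1 and 45.9% in ChIP replicate 2.

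The nub and pdm2 interval, from 12585000 to 12690000 (105 kb), carried the only clusters that both replicates placed in these loci. The genes (Dmel_CG34395 and Dmel_CG12287) encode the POU domain factors Nubbin and Pdm2. Each list had 2 clusters overlapping the interval, and 85.4%, 86.3% and 86.3% of tiles of this width held at least 1 in ChIP replicate 1, in ChIP replicate 2 and in the combined list, so holding a cluster was the usual state for an interval of this size. The clusters covered 2.61% of the interval in ChIP replicate 1, 2.30% in ChIP replicate 2 and 2.64% in the combined list, and the mean of the replicates was 2.45 ± 0.22% (SD, n = 2). The median tile of the same width was covered to 10.8% in each replicate and to 12.4% in the combined list. Of these tiles, 74.9% in ChIP replicate 1 and 76.7% in ChIP replicate 2 were covered more than the interval was.

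The cluster inside this interval was narrow, of low score and closely placed in both replicates. It ran from 12617360 to 12619445 in ChIP replicate 1, from 12617433 to 12619459 in ChIP replicate 2 and from 12617396 to 12619474 in the combined list. Its width was 2.09 kb in ChIP replicate 1, 2.03 kb in ChIP replicate 2 and 2.08 kb in the combined list, below the medians of 2.53, 2.60 and 2.63 kb for all clusters of these lists. Its start differed by 73 bp between the replicates and its end by 14 bp, and the replicates shared 2013 bp of it. Its score was 0.76 in ChIP replicate 1, 0.50 in ChIP replicate 2 and 0.60 in the combined list, above 29.3%, 14.5% and 31.5% of the scores in these lists. The cluster began 32.4 kb into the interval. In the RefSeq order the protein-coding gene Ref2, which encodes an RNA export factor, starts between nub and pdm2. Whether the cluster belongs to nub, to Ref2, to pdm2 or to none of them cannot be told from its position alone.

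The second cluster lay across the right edge of the interval and mostly outside it. It ran from 12689346 to 12693944 in ChIP replicate 1, from 12689614 to 12693955 in ChIP replicate 2 and from 12689304 to 12693962 in the combined list. Of its length, 14.2% in ChIP replicate 1, 8.91% in ChIP replicate 2 and 15.0% in the combined list fell within the interval. It was the stronger and wider of the 2 clusters, at 4.60 kb in ChIP replicate 1, 4.34 kb in ChIP replicate 2 and 4.66 kb in the combined list. Its scores of 1.18, 1.32 and 1.25 stood near the middle of these lists, above 50.0%, 56.1% and 59.7% of the scores. The protein-coding genes after pdm2 in the RefSeq order are Nepl7 and CCT4, a subunit of a chaperonin in the cytosol, and the cluster was not assigned to any of them. When only clusters with at least 50% of their length inside the interval were counted, 1 cluster was left in each replicate.

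**Figure D3:**
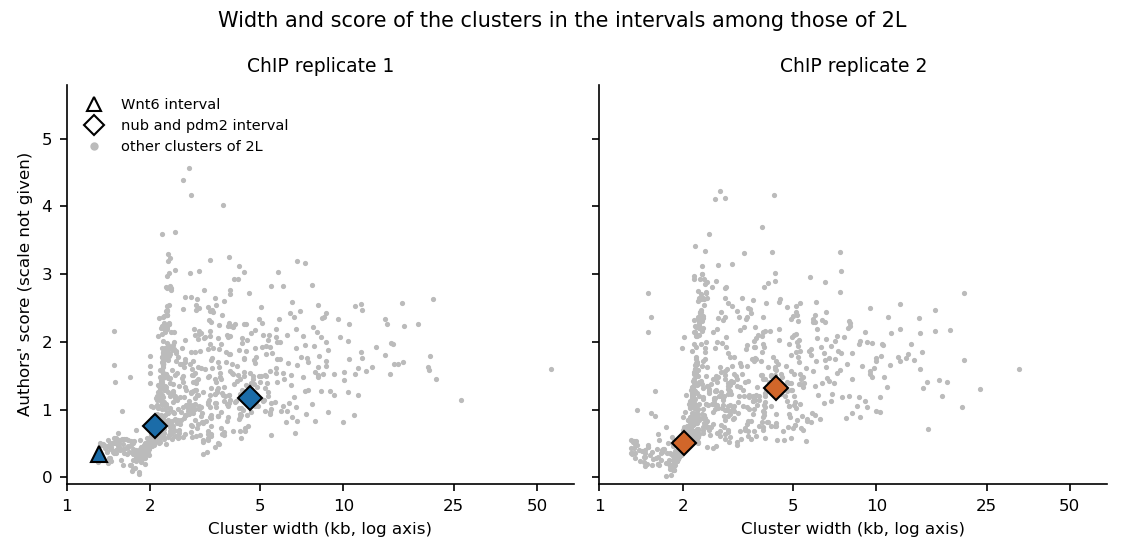
Width in kb (log axis) against the authors' score for every cluster of 2L in each replicate, with the clusters of the Wnt6 interval (triangle) and of the nub and pdm2 interval (diamonds) marked. The Wnt6 cluster sits at the narrow, low end at 1.31 kb and 0.35, the inner nub and pdm2 cluster at about 2 kb and 0.76 or 0.50, and the cluster at the edge near the middle of the scores at 1.18 or 1.32.

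Between the clusters this locus held empty stretches about as long as that of dpp. From the cluster inside the interval to the one at its right edge, 69.9 kb in ChIP replicate 1, 70.2 kb in ChIP replicate 2 and 69.8 kb in the combined list were free of clusters. To the left of the inner cluster a further 69.6 kb in ChIP replicate 1, 69.8 kb in ChIP replicate 2 and 69.7 kb in the combined list were free, of which 32.4 kb fell within the interval in each list. These ranked 72nd and 74th of 856 on 2L in ChIP replicate 1 and 73rd and 74th of 817 in ChIP replicate 2. Like the dpp stretch, they were among the longer ones by number. Stretches at least as long held 45.2% and 45.8% of the bases of 2L in ChIP replicate 1 and 45.3% and 45.6% in ChIP replicate 2. The surroundings were covered to a larger share than 2L as a whole. Flanks of 105 kb on either side of the interval were covered to 18.7% on the left and 21.2% on the right in ChIP replicate 1, and to 16.8% and 27.8% in ChIP replicate 2. The interval was thus covered less than the mean of its flanks by 17.3 percentage points in ChIP replicate 1 and by 20.0 in ChIP replicate 2. Most of the cluster across the right edge counted for the right flank, so this difference depends in part on where the interval was cut. The dpp interval was below the mean of its flanks by 5.99 points in ChIP replicate 1 and by 5.58 in ChIP replicate 2, and the ds interval by 5.03 and 3.15. When each list was limited to its upper 50% by score, these differences were smaller, with means over the replicates of -11.2 points for nub and pdm2 (-18.7 with all clusters), -3.59 for dpp (-5.78) and 0 for ds (-4.09). With intervals widened by 5 kb at both edges, the flanks were lengthened to match and began further out. The ds difference was then larger, at -7.64 points, through its flanks alone, since the widened ds interval was still covered to 0%. The difference of nub and pdm2 was smaller with this setting, at -12.9 points, and that of dpp was -5.77. For wg the only cluster in the flanks was the Wnt6 cluster of ChIP replicate 1, and there the interval lay below the mean of its flanks by 5.03 points, while in ChIP replicate 2 interval and flanks were both empty. For Wnt6 the flanks were empty in all lists, against a covered share of 4.84% in the interval in ChIP replicate 1 and of 0% in ChIP replicate 2. Both of these differences thus rest on the same cluster, which ChIP replicate 1 alone listed.

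**Figure D4:**
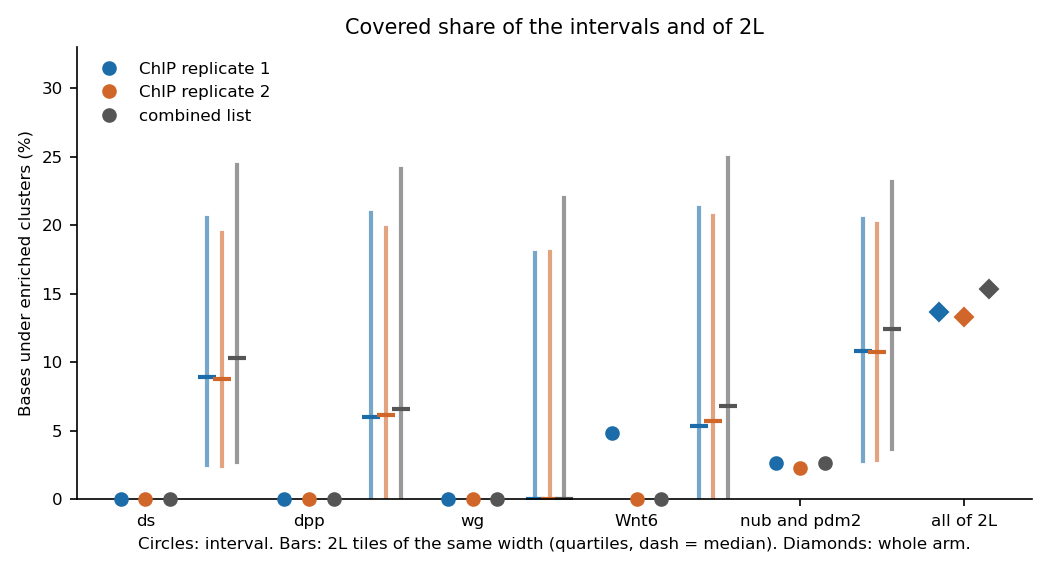
Percent of bases under enriched clusters in each interval (circles, by list), beside the quartiles and the median of all tiles of 2L of the same width (bars and dashes) and the share of the whole arm (diamonds). Every circle lies below the diamond of its own list, at 4.84% or less in the intervals against 13.3 to 15.3% for 2L. The medians of the tiles lie below the diamonds too, and the wg tiles have a median of 0.

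Set in order by the share covered in the replicates, the nub and pdm2 interval, at 2.45 ± 0.22%, and the Wnt6 interval, at 2.42 ± 3.42% (SD, n = 2 each), did not differ beyond their spread. That spread was wide because the Wnt6 share came from ChIP replicate 1 alone, and the intervals differ in width. In bases, nub and pdm2 had 2741 bp covered in ChIP replicate 1 and 2414 bp in ChIP replicate 2, against 1307 and 0 bp for Wnt6. The ds, dpp and wg intervals followed with 0% in both replicates. The lists agreed on 4 of the 5 intervals as to whether any cluster was present, and only the Wnt6 interval differed between them. Within the nub and pdm2 interval 2400 bp were covered in both replicates and 2755 bp in either, a Jaccard index of 0.871. None of the 5 intervals held a region that the authors listed as depleted.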

How the data were processed

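The submitters' processing notes name Bowtie 0.12.7. Per the labels' protocols, fixation used 1.8% formaldehyde (10 min) and the antibody incubation took 15 h. Per the file headers, regions lie on FlyBase release 5. The score of each region was deposited by the authors. Not given in the sources used here are the region caller, its threshold, its use of input and the making of the combined list. Depth is unknown.

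Clusters are regions with a score above 0. For each interval, the overlapping clusters, the covered share, flanks of the same length, the nearest clusters and the stretches without clusters were computed with Python 3.11.15 and numpy 2.4.6, and figures were drawn with matplotlib 3.10.9. The interval functions were checked on simulated lists. Tiles of 2L did not overlap and started at its first base. All 6 genes and every cluster in their intervals were named or counted, by rule. The members and lists were chosen with earlier results of these data known. No sequences are shown, as none were used here.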

Additional observations from a re-analysis of the deposited data

How the results depend on the processing

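Of 117 alternative values for 20 results, 95 stayed within the spread between replicates or, for numbers, within 1.5 times the original, 22 moved further, and none reversed. For the Jaccard index any change counted as moved. That of nub and pdm2 went from 0.871 to 0 with the upper 50% by score and to 0.945 with intervals widened by 5 kb. Many of the 95 could not change, as no cluster lay in or near the interval, and say nothing about stability. The Wnt6 covered share fell from 2.42% to 0% with the upper 50% by score, with the combined list and without ChIP replicate 1. Without ChIP replicate 2 it rose to 4.84%. These values counted as within the spread only because that spread was wide, with an SD of 3.42. When each list was limited to its upper 50% by score, 0 clusters remained in the Wnt6 interval and a mean of 0.5 in that of nub and pdm2, whose covered share was 0.18% with this setting. The cluster at its edge sat at the median score of ChIP replicate 1 and dropped out there by construction. With the combined list, the Wnt6 interval held 0 clusters. With at least 50% of a cluster inside, nub and pdm2 held 1. Widening each interval by 5 kb brought the weak cluster left of dpp into its interval, with 1 cluster and a covered share of 3.43%, and raised that of nub and pdm2 to 5.68%. Leaving out each replicate gave 0 to 1 clusters for Wnt6. The number of intervals without a cluster was 3, and between 2 and 4 over these alternatives. Tiles of 2L without a cluster were common too. In ChIP replicate 1 the share of tiles that held one was 78.4% at the width of ds, 61.5% at that of dpp and 39.6% at that of wg. It was 53.9% at the width of Wnt6 and 85.4% at that of nub and pdm2. No interval was covered more than 2L under any of them, but with the original widths and all clusters the median tile was not either. Merging clusters within 1 kb could change little, since no cluster in an interval had a neighbour so close, and it altered only the differences from the flanks, to -4.15 points for ds and -18.8 for nub and pdm2. Scores and the Jaccard index have no value where an interval held no cluster. No paired analysis was possible because the comparisons rest on lists of the ChIP group alone and no test was made. Unknown depth limits every absence: a deeper library can list more clusters at the same occupancy.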
